A study of Homo sapiens with 9 samples.

Results

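The regions described here are stretches of accessible chromatin in HEK293T cells that were found in the control, the IGF2BP1 knockout and the IGF2BP2 knockout but were missing from the IGF2BP3 knockout. ATAC-seq, in which the Tn5 transposase cuts and tags open DNA, had been run on 9 libraries in 4 groups, and 1 list of peaks per group was available. The groups were a wild-type control carrying a non-targeting CRISPR/Cas9 guide (2 libraries), an IGF2BP1 gene knockout (3 libraries), an IGF2BP2 gene knockout (2 libraries) and an IGF2BP3 gene knockout (2 libraries), with no further treatment in any group. Per the labels' protocols, each knockout was 1 clone grown from a single GFP-positive cell after transient transfection with non-integrating plasmids carrying 3 guides and GFP, and an effect of the genotype cannot be told apart from a trait of that clone. The control was made in parallel, and whether it was a clone is not given in the sources used here. Libraries were from batches 2 and 3, with the IGF2BP1 knockout also in batch 1, and no value within a batch could be had. Peaks of the 4 lists that shared at least 1 bp were merged into 71597 regions, and the 3690 regions that overlapped a peak of the first 3 lists and none of the IGF2BP3 knockout list were kept. The regions were thus chosen by presence or absence of a peak in the lists, so their number and their absence from the IGF2BP3 knockout are descriptions and carry no test. A peak list gives positions only. It holds no height, no value per library and no depth, so no spread between replicates could be measured and a peak just under the caller's threshold looks the same as a closed site.

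IGF2BP3 belongs to a family of RNA-binding proteins that are made mainly in the embryo and again in many tumours, and that bind, store and stabilise messenger RNAs, many of them carrying the m6A mark. Accessible sites are of 2 broad kinds. Promoters of widely used genes, mostly rich in CpG, tend to be open in most cells, whereas sites inside genes or between them, including enhancers and binding sites of the insulator protein CTCF, differ more between cell types. HEK293T is a human embryonic kidney line transformed with adenovirus DNA and SV40 large T antigen, with both epithelial and neuronal gene activity. As a check of the label, a peak lay within 1 kb of an end of 10 of 12 listed HEK293T marker genes in the control, the IGF2BP1 knockout and the IGF2BP2 knockout lists and of 11 in the IGF2BP3 knockout list, against 2 to 5 of 12 blood genes and 3 to 4 of 12 liver genes.

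Promoter sequences of 6 genes are shown first, because many of the regions at promoters were poor in CpG and others rich in it, and these genes show both ends. IFI44L, FOXP2, METRN and SLC4A10 were among the 10 widest regions at annotated promoter windows of protein-coding genes. NEUROD1 and RPL35A belong to the gene lists described further on. Each stretch holds the 250 bases before the annotated start, 5′ to 3′ on the gene's own strand, from the RefSeq table of GRCh38.p14, and lies wholly inside its region. Capitals mark matches on either strand to 14 short motifs that are listed below.
IFI44L, chr1:78620198-78620447, + strand: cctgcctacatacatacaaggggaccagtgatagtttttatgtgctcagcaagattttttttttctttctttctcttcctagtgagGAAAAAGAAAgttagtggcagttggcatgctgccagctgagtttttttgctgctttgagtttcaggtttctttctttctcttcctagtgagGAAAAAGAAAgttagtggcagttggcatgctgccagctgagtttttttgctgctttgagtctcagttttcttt
FOXP2, chr7:114414565-114414814, + strand: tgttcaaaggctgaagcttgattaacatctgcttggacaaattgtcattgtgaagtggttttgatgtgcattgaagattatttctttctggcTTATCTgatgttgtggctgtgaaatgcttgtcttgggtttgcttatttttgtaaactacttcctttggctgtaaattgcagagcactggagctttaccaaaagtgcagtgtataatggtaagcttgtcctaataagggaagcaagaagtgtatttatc
METRN, chr16:714868-715117, + strand: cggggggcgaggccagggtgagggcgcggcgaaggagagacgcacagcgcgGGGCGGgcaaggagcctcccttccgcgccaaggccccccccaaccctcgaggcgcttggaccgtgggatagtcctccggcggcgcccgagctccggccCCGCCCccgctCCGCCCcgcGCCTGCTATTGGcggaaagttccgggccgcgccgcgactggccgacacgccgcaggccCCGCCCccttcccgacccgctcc
SLC4A10, chr2:161624166-161624415, + strand: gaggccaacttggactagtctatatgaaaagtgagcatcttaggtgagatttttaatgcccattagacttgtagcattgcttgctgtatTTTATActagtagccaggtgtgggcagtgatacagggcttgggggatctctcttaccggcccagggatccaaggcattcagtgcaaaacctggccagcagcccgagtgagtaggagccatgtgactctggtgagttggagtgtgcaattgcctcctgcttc
NEUROD1, chr2:181680518-181680767, - strand: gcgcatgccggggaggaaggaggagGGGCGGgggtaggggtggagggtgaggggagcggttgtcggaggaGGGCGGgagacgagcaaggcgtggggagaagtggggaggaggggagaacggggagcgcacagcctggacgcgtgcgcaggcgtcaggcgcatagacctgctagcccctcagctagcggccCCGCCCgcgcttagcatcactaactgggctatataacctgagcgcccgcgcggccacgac
RPL35A, chr3:197949940-197950189, + strand: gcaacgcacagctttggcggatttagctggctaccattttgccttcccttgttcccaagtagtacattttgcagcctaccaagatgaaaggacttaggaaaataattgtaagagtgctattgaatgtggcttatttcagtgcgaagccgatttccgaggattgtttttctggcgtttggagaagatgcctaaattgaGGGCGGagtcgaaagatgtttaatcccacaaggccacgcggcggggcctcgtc
The IFI44L stretch held 0 CpG in 250 bases and was 40.4% G or C. It contained 85 bases that occurred at 2 places, 91 bases apart, and each copy carried 1 match to the interferon-response motif, beginning 164 and 73 bases before the start. The FOXP2 stretch likewise held 0 CpG (37.6% G or C) and a single match, to the GATA motif. The SLC4A10 stretch held 2 CpG, an observed-to-expected ratio of 0.13. METRN stood at the other end, with 36 CpG (ratio 0.95), 78.4% G or C, 4 GC boxes, 1 CCAAT box and 1 match to the CTCF core, which overlaps the CCAAT box. NEUROD1 held 24 CpG (ratio 0.86) and 3 GC boxes, and RPL35A 12 CpG (ratio 0.86) and 1 GC box. A match is a run of letters and not a measured binding site.

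The 3690 regions made up 11.1% (Wilson 95% interval 10.7 to 11.4, counting error over regions only) of the 33376 regions held by the other 3 lists. The same share was 3.15% when the list left out was the IGF2BP1 knockout (967 regions missing only there), 2.12% for the IGF2BP2 knockout (642 regions) and 14.2% for the control (4925 regions). The longer lists had the lower shares. The IGF2BP1 and IGF2BP2 knockout lists held 50917 and 60262 peaks, the IGF2BP3 knockout list 44041 and the control list 39194. Whether length accounts for the shares was not tested. When each list was shortened to its 39194 widest peaks, the shares came to 7.54% for the IGF2BP3 knockout, 5.9% for the IGF2BP1 knockout, 8.11% for the IGF2BP2 knockout and 8.72% for the control. The IGF2BP3 knockout share then lay below those of the IGF2BP2 knockout and the control. Of the 1958 regions then missing only from the IGF2BP3 knockout, 393 overlapped an IGF2BP3 knockout peak of the full list. Of the 3690 regions, 1565 (42.4%) were still missing only from the IGF2BP3 knockout with the shortened lists. The 8 named below as the widest and the 10 named as the widest at promoters were all kept. Their choice by width fixed this in advance, so it is no check of them.

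Distances to IGF2BP3 knockout peaks are given without a background, and the rule itself excluded overlap. The nearest IGF2BP3 knockout peak lay a median of 18.8 kb away (quartiles 7.71 and 43.9 kb), and at most 2.11 Mb away. For regions missing only from the IGF2BP1 or the IGF2BP2 knockout, the nearest peak of that list lay a median of 12.2 and 11 kb away. Those lists held more peaks (50917 and 60262, against 44041), which shortens such distances. Only 119 regions (3.22%) lay under 1 kb from an IGF2BP3 knockout peak and 37 under 500 bp, whereas 325 (8.81%) lay at least 100 kb away. The closest was within CAP2 on chromosome 6 (chr6:17491342-17492356), 50 bp from such a peak, with peaks of 659, 754 and 784 bp in the lists of the control, IGF2BP1 knockout and IGF2BP2 knockout. A region 0.931 kb from NEUROG3 (chr10:69574354-69575267, peaks of 752, 914 and 564 bp) lay 162 bp away. On the other side of the rule, the smallest contact among the 29686 regions in all 4 lists was at chr1:67853491-67853971 in GNG12-AS1, where an IGF2BP3 knockout peak of 222 bp shared all its 222 bp with the other peaks. In 0 of these 29686 regions did the IGF2BP3 knockout peaks share under 100 bp with the others. The peaks of the 3 lists that held a region coincided: 3680 of the 3690 regions (99.7%) had bases common to all 3, over a median of 469 bp, and 41 regions (1.11%) held more than 1 peak of a list.

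Most of the regions were narrow. Control peaks had a median width of 553 bp (quartiles 456 and 713 bp), IGF2BP1 knockout peaks of 695 bp (547 and 882 bp) and IGF2BP2 knockout peaks of 548 bp (462 and 698 bp). Regions in all 4 lists had medians of 876, 990 and 856 bp in the same lists and 848 bp in the IGF2BP3 knockout. Regions missing from another single list were narrow too. Those missing only from the IGF2BP1 knockout had medians of 511 bp in the control and 528 bp in the IGF2BP2 knockout, and those missing only from the IGF2BP2 knockout 594 bp in the control and 722 bp in the IGF2BP1 knockout. The medians of the regions missing only from the IGF2BP3 knockout stood at the 24.4th, 33.2nd and 36th percentile of the widths of their lists. The order of the lists was much the same in both kinds of region: the IGF2BP1 knockout peak was the widest of the 3 in 64.2% of the missing regions and in 61.4% of the regions in all 4 lists. Width also bore on how often a region was missing. Among regions held by the other 3 lists, 40.4% were missing where the narrowest of the 3 peaks was under 400 bp, 16.1% from 500 to under 600 bp, 3.01% from 800 to under 1000 bp and 0.0568% (1 of 1761) at 1500 bp or more. That single region was at NCL, the gene of nucleolin, an abundant nucleolar RNA-binding protein. Width comes from the same peak calls as the rule and is given as a description.

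**Figure D1:**
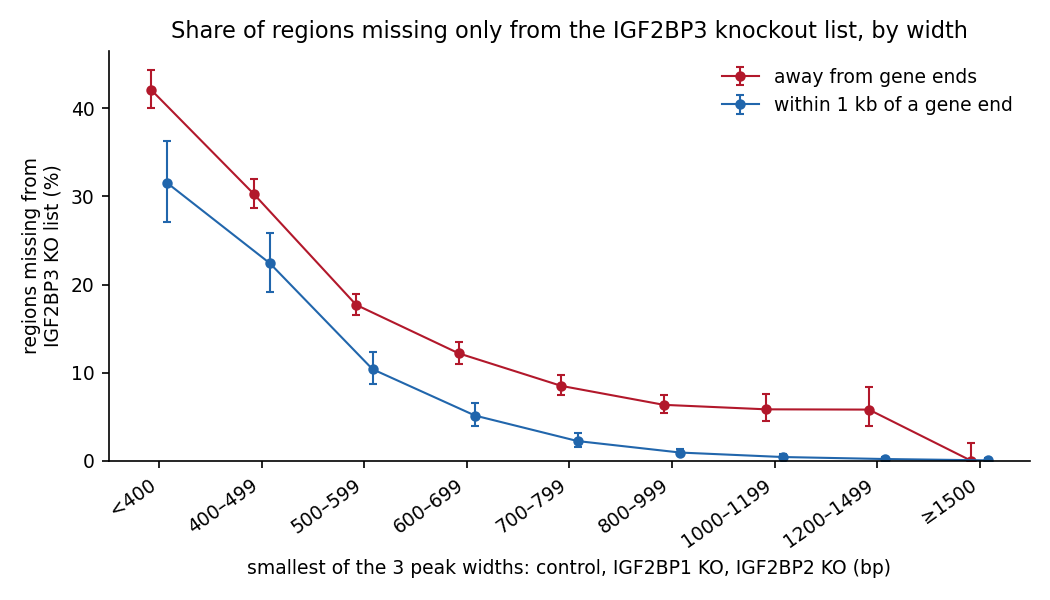
Percentage of regions missing from the IGF2BP3 knockout list among those held by the other 3 lists (y axis), by the smallest of the 3 peak widths in bp (x axis). Red points are regions away from gene ends, blue points regions within 1 kb of a gene end, and bars are Wilson 95% intervals; the share falls from 42.1% to 0% in the red and from 31.5% to 0.0634% in the blue points, with red above blue in every bin but the widest.

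Few of these regions were at promoters. A window of 300 bases around an annotated start (250 before to 50 after) was touched by 159 regions, 4.47% of the 3558 that lay on sequences with annotated windows (Wilson 95% interval 3.84 to 5.2). For regions in all 4 lists it was 37.7%, for regions missing only from the IGF2BP1 knockout 5.71%, for regions missing only from the IGF2BP2 knockout 19.2%, for regions missing only from the control 5.54% and for all merged regions 17.9%. Read the other way, 1.46% of the promoter regions held by the other 3 lists were missing from the IGF2BP3 knockout (159 of 10887). PEG10 and any other gene without an annotated window are not counted in these shares. Counting the promoter windows together with positions within 1 kb of either end of a gene, 519 regions (14.1%, 13 to 15.2) were at a gene end, against 51.5% of the regions in all 4 lists. The share was 15% for regions missing only from the control, 18.8% for the IGF2BP1 knockout and 33.2% for the IGF2BP2 knockout. The 519 regions were 3.28% of the 15821 gene-end regions held by the other 3 lists. Of the rest, 2047 (55.5%) lay inside an annotated gene and 1124 (30.5%) outside all genes, against 27.9% and 20.5% of the regions in all 4 lists. The median distance to the nearest start with a promoter window was 28.8 kb, against 8.46 kb for the regions in all 4 lists. It was 26.5 kb for those missing only from the IGF2BP1 knockout, 20.3 kb for the IGF2BP2 knockout and 35.7 kb for the control. In bins of the narrowest peak width, gene-end regions were less often missing than other regions in every bin but the widest. From 500 to under 600 bp, 10.4% of gene-end regions and 17.7% of other regions were missing, and from 1000 to under 1200 bp the shares were 0.442% and 5.85%. At 1500 bp or more they were 0.0634% and 0%. Whether width accounts for the difference at gene ends was not tested. The gene table gives no exons, so regions inside genes were not divided further.

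The promoters that were missing spanned a wide range of CpG content, close to that of annotated promoters at large. Across the 203 promoter windows touched by a region missing only from the IGF2BP3 knockout, the median ratio of observed to expected CpG was 0.48 and the median G and C content 55.7%. The 16235 windows of regions in all 4 lists had medians of 0.84 and 66.3%, and the full set of 34943 annotated windows medians of 0.58 and 58.7%. A ratio under 0.4 was found in 45.3% of the missing windows (92 of 203), in 5.5% of the windows of all 4 lists and in 40.7% of all windows. For regions missing only from the IGF2BP1 and IGF2BP2 knockouts the shares were 30.3% (20 of 66 windows) and 12.1% (19 of 157), and for regions missing only from the control 40.2%. Below 1000 bp, narrower regions touched more CpG-poor windows in both kinds of region. Among regions whose narrowest peak was under 500 bp, 52.9% of 70 missing windows and 27.7% of 314 windows in all 4 lists had a ratio under 0.4. From 700 to under 1000 bp the shares were 34.1% of 41 and 5.89% of 4943. At 1000 bp or more they were 38.5% of only 13 missing windows and 3.1% of 9771. Windows of genes with several starts overlap one another and are not independent.

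**Figure D2:**
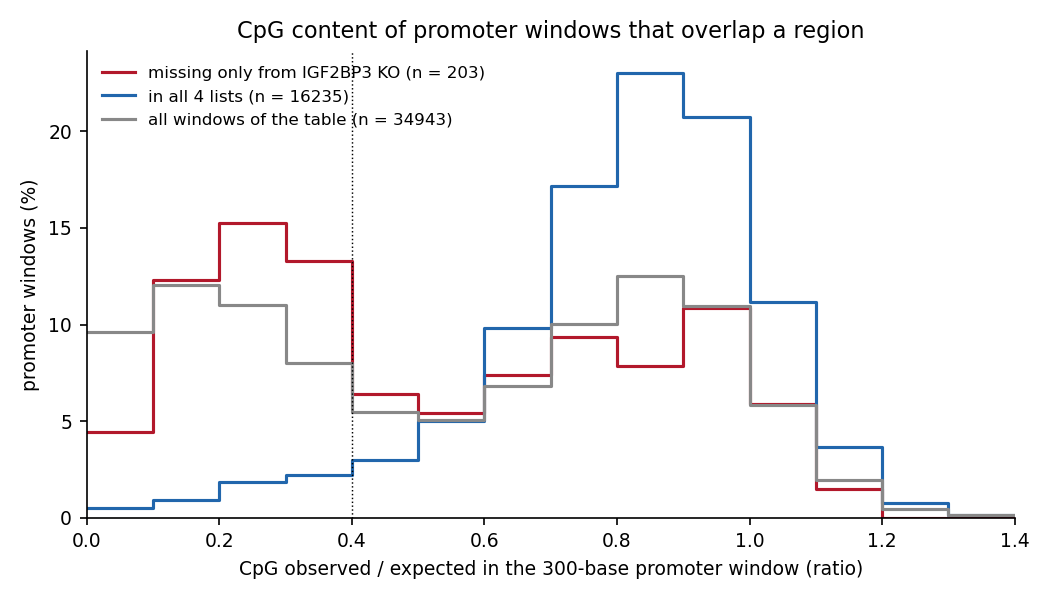
Distribution of the observed-to-expected CpG ratio (x axis) as the percentage of 300-base promoter windows per step of 0.1 (y axis), for windows touched by regions missing only from the IGF2BP3 knockout (red), by regions in all 4 lists (blue) and for all windows of the table (grey). The red line has a low-CpG hump left of the dotted line at 0.4, with 45.3% of its windows, where the blue line has 5.5%.

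Motif matches were counted in the same windows. The 14 motifs, searched on both strands, were the AP-1 site TGANTCA, the ETS core CCGGAAG, the CRE TGACGTCA, the CCAAT box CCAAT, the GC box GGGCGG, the E-box CACGTG, the NRF1 site, the TATA box TATAAA, the YY1 site AAGATGGCG, an interferon-response motif, the CTCF core, the TEAD site GGAATG, the GATA site AGATAA and the SOX site ACAAAG. Several motifs rich in G and C were less common in the 203 missing windows than in the windows of all 4 lists. The GC box was in 45.8% against 72.5% (44.9% of all windows), the ETS core in 8.37% against 18% (10.2%) and the NRF1 site in 2.46% against 11.1% (5.74%). A pair of motifs rich in A and T were more common. The GATA site was in 13.3% of the missing windows against 4.37% in all 4 lists (10.4% of all windows), and the TATA box in 10.8% against 4.82% (11.6%). For these 5 motifs the missing windows lay nearer to the full set of windows than to the windows of all 4 lists. Windows of regions missing only from the control had similar shares for 4 of the 5, with the GC box in 43.4%, the NRF1 site in 2.25%, the TATA box in 10.9% and the GATA site in 10.6%, and 3.54% for the ETS core. The interferon-response motif seen in the IFI44L sequence was in 6 of 203 missing windows (2.96%), 2.32% of the windows in all 4 lists and 3.57% of all windows. The CTCF core was in 9 missing windows (4.43%), against 3.07% and 2.41%.

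The widest of these regions, ranked by the narrowest of their 3 peaks among those at least 1 kb from an IGF2BP3 knockout peak, was at an end of NCL on chromosome 2 (chr2:231451893-231454041). Its control peak spanned 1951 bp, its IGF2BP1 knockout peak 1716 bp and its IGF2BP2 knockout peak 2149 bp, and the nearest IGF2BP3 knockout peak was 9.87 kb away. The second lay inside ROR1 (chr1:64171419-64173718), which encodes a receptor for Wnt5a, with peaks of 2300, 1828 and 1497 bp in the same order. The third lay in NR2F2-AS1 (chr15:96165559-96167135), an antisense RNA named for a nearby nuclear receptor gene, with peaks of 1448, 1470 and 1577 bp. In every list that held them, these 3 regions were wider than the upper quartile of the regions in all 4 lists (1170, 1300 and 1152 bp). The next 3 that were not at a promoter lay between genes at chr12:46124009-46125788, 57.3 kb from SLC38A1, in the noncoding gene LINC01876 (chr2:156124002-156125681), and between genes at chr13:44758724-44760342. The last had no IGF2BP3 knockout peak within 157 kb. A region inside LTBP2, which encodes a matrix protein that binds fibrillin, closed the group (chr14:74572148-74573598) with peaks of 1328, 1447 and 1451 bp.

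The regions at promoters touched windows of 175 genes, 124 of them protein-coding and 51 long noncoding. METRN on chromosome 16, which encodes the secreted neurotrophic factor meteorin, had the widest (chr16:714769-716209), with peaks of 1422, 1365 and 1401 bp in the order of lists used above, so the 3 widths were nearly equal. ERF, which encodes a repressor of the ETS family, followed (chr19:42253434-42255462) with 1575, 2029 and 1262 bp. An internal start of FOXP2, a forkhead transcription factor of the developing brain, had peaks of 1253, 2497 and 1284 bp (chr7:114414046-114416542), so the IGF2BP1 knockout peak stood apart from the other 2. The nearest IGF2BP3 knockout peak to FOXP2's region was 85.7 kb away. VAMP2, a SNARE protein of synaptic vesicles, had peaks of 1221, 1386 and 1301 bp (chr17:8162409-8164613). MAP1LC3C, of the LC3 family of autophagy proteins, had 1226, 1281 and 1200 bp at an internal start (chr1:241998275-241999709), and the unnamed gene LOC112694756 beside TLCD3B had 1121, 1148 and 1155 bp (chr16:30052812-30053970). TNFRSF19, a receptor of the tumour necrosis factor family, had peaks of 1005, 1087 and 1084 bp (chr13:23570054-23571140). SCP2, a sterol carrier protein, had 1084, 1141 and 936 bp at an internal start (chr1:53014455-53015843). SLC4A10, a sodium bicarbonate transporter of neurons, had 974, 1157 and 933 bp (chr2:161624095-161625254), and its region was 208 kb from the nearest IGF2BP3 knockout peak.

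**Figure D3:**
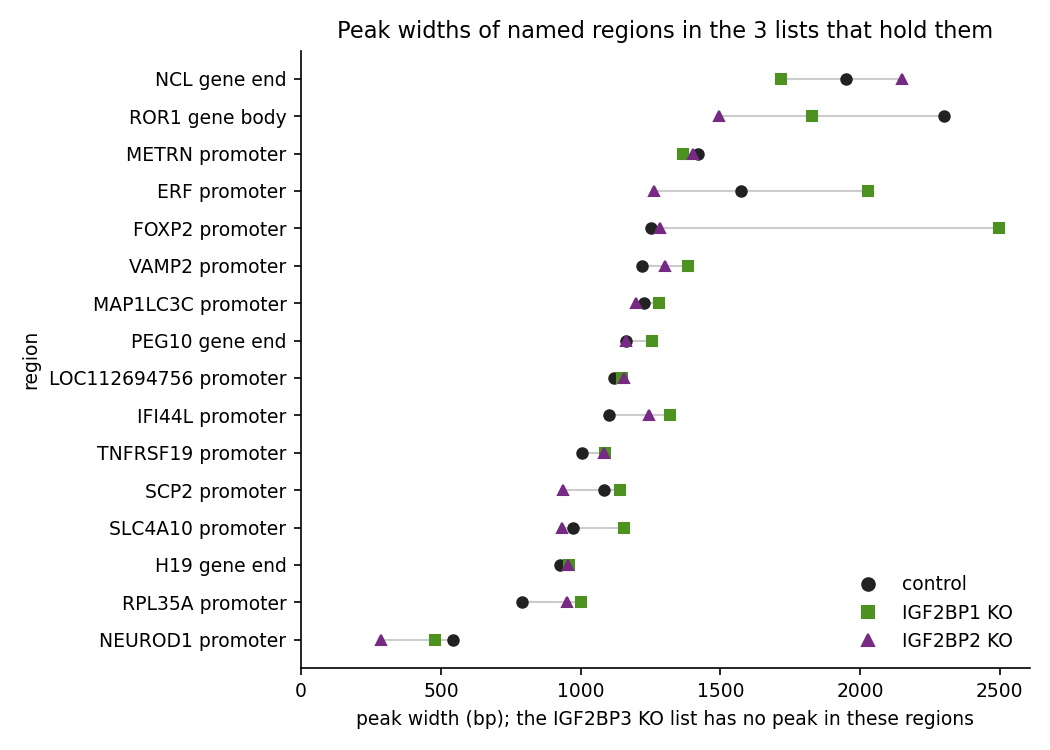
Peak width in bp (x axis) of 16 named regions (y axis) in the control (black circles), the IGF2BP1 knockout (green squares) and the IGF2BP2 knockout (purple triangles); grey lines join the 3 values and the IGF2BP3 knockout list has no peak in any of them. NCL is the widest by its narrowest peak (1716 bp), NEUROD1 the narrowest (287 bp), and the FOXP2 peak of the IGF2BP1 knockout (2497 bp) stands apart.

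Gene lists of pathways relevant to the cell line and the proteins were examined at gene ends. Over all 12999 protein-coding genes with a gene-end region held by the other 3 lists, 276 (2.12%) had at least 1 such region missing from the IGF2BP3 knockout, and at 164 (1.26%) every such region was missing. In the list of innate sensing and interferon genes, a subject that the study's title names for leukemia stem cells rather than HEK293T, 1 of 35 genes (2.86%) had such a region. That gene was IFI44L, an interferon-induced gene, whose promoter region (chr1:78619314-78620875) had peaks of 1102, 1321 and 1245 bp in the control and the IGF2BP1 and IGF2BP2 knockouts. The nearest IGF2BP3 knockout peak was 1.32 kb away, and IFI44L had no gene-end region in all 4 lists. The 0 counts were in 4 lists: kidney developmental transcription factors (0 of 20 genes), axon guidance genes (0 of 35), m6A writers, erasers and readers (0 of 25) and chromatin architecture and remodelling genes (0 of 45). Lists of 20 to 45 genes are too short to set a count of 0 apart from a background of 2.12%.

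The list of oncofetal genes and transcripts bound by IGF2BP proteins had 2 of 24 genes (8.33%), and both are imprinted. The background of 2.12% is over protein-coding genes, whereas H19 is noncoding, and so small a count was not tested against it. PEG10, a gene derived from a retrotransposon and expressed from the paternal copy, had peaks of 1164, 1257 and 1164 bp (chr7:94655090-94656486), with no IGF2BP3 knockout peak within 144 kb. That region also lay at an end of the gene SGCE. H19, a noncoding RNA expressed from the maternal copy, had peaks of 925, 957 and 954 bp at 880 bp upstream of the gene (chr11:2002147-2003103). The nearest IGF2BP3 knockout peak was 22.8 kb away, and the region lay inside the gene MRPL23. At both genes the widths in the 3 lists differed by under 100 bp. In the neural list 1 of 26 genes (3.85%) had such a region: NEUROD1, a transcription factor of neuronal and islet cells, with narrow promoter peaks of 544, 478 and 287 bp (chr2:181680358-181680901). Among cytosolic ribosomal proteins there were 3 of 75 genes (4%). RPL35A had a region with peaks of 792, 1000 and 950 bp at a promoter shared with DRC9 (chr3:197949441-197950491). RPS2 had regions at both ends, with peaks of 1283, 1040 and 908 bp (chr16:1960350-1961688, 0.298 kb from an IGF2BP3 knockout peak) and 535, 725 and 645 bp (chr16:1964571-1965295). The first of these lay outside RPS2, within the gene NDUFB10 and at its end. RPL41 had a region of 372, 719 and 743 bp (chr12:56116097-56116842) and kept another gene-end region in all 4 lists. Of the cell cycle list 1 of 42 genes had such a region, the phosphatase gene CDC25B, at a promoter shared with CENPB (chr20:3786708-3787174, peaks of 467, 432 and 349 bp). Of the WNT, NOTCH, Hedgehog and TGF-beta list 1 of 56 genes had 1, the receptor gene NOTCH2, 455 bp downstream of the gene (chr1:119909924-119911097, peaks of 1020, 958 and 834 bp).

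The targeted genes were looked at singly. IGF2BP3 itself, on chromosome 7, overlapped 3 merged regions, of which 1 was in all 4 lists and 1 was missing only from the IGF2BP3 knockout, at chr7:23430128-23431487, with a control peak of 993 bp, an IGF2BP1 knockout peak of 1257 bp, an IGF2BP2 knockout peak of 555 bp and no IGF2BP3 knockout peak within 42.5 kb. IGF2BP1, with 2 regions in all 4 lists, and IGF2BP2, with 1, had 0 such regions, and the nearest were 495 and 240 kb away. Counts this small say nothing against the 11.1% of all regions. Peaks do not show whether a gene was cut, so these values do not check the labels. Hairpins of 3 microRNAs lay in regions of this kind: MIR1226 and MIR138-1 on chromosome 3 and MIR219A1 on chromosome 6. Hairpins in all regions held by the other 3 lists were not counted, so these names have no background and are no result about microRNAs.

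Chromosomes 2 and 16 held the largest shares. On chromosome 2, 504 of 2444 regions held by the other 3 lists were missing from the IGF2BP3 knockout (20.6%, Wilson 95% interval 19.1 to 22.3), and on chromosome 16, 179 of 1103 (16.2%, 14.2 to 18.5), against 11.1% genome-wide. The other 21 chromosomes ranged from 3.76% on chromosome 17 (2.91 to 4.85) to 13.2% on chromosome 7. For the other lists the same chromosomes were among the 5 with the lowest shares. Those shares count only regions with an IGF2BP3 knockout peak, so they are not independent of the shares above. On chromosome 2, 1.72% of regions were missing only from the IGF2BP1 knockout and 1.02% only from the IGF2BP2 knockout, below those lists' genome-wide 3.15% and 2.12%, and on chromosome 16 the values were 1.81% and 1.39%. Regions missing only from the control made up 10.2% on chromosome 2 and 8.06% on chromosome 16, against 14.2% genome-wide. Chromosome 17, the lowest for the IGF2BP3 knockout, was the highest for the IGF2BP1 knockout (7.96%), and chromosome 11 the highest for the IGF2BP2 knockout (5.6%). With the 39194 widest peaks of each list, chromosomes 2 and 16 were again the highest, at 16.6% and 11.1% against 7.54% genome-wide.

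**Figure D4:**
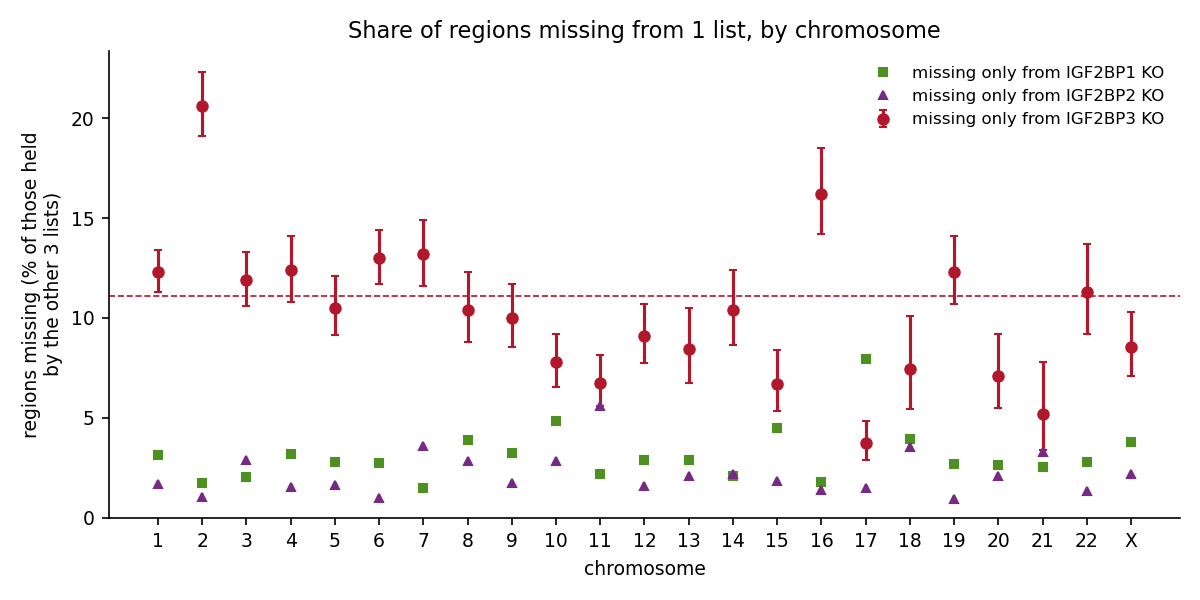
Percentage of regions missing from 1 list among those held by the other 3 lists (y axis) for each chromosome (x axis): missing only from the IGF2BP3 knockout (red circles with Wilson 95% intervals), the IGF2BP1 knockout (green squares) or the IGF2BP2 knockout (purple triangles). The dashed line is the 11.1% of all regions for the IGF2BP3 knockout; chromosomes 2 (20.6%) and 16 (16.2%) lie above it and chromosome 17 (3.76%) lies lowest.

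Chromosome 2 had the higher share at each width, and both at gene ends and elsewhere. Where the narrowest peak was 400 to under 500 bp, 50% of the chromosome 2 regions were missing (129 of 258) against 28.9% of all regions of that width, and from 800 to under 1000 bp 6.22% against 3.01%. At gene ends 5.63% of the chromosome 2 regions and 5.8% of the chromosome 16 regions were missing, against 2.99% on the other sequences. Away from gene ends the shares were 32.6%, 30.5% and 16.4%. Regions in all 4 lists were also compared by width, which comes from the same peak calls and is not separate support. Their IGF2BP3 knockout peaks were narrower than the control peaks by a median log2 ratio of -0.14 on chromosome 16, -0.12 on chromosome 19 and -0.08 on chromosome 2, the 3 lowest of 23 chromosomes, against -0.03 over all regions. On chromosome 19, however, 12.3% of regions were missing, close to the genome-wide share. Each knockout is 1 clone, regions along a chromosome are not independent, and a trait of the clone on these chromosomes cannot be told apart from the knockout.

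Along chromosome 2 the missing regions were spread over most of its length. Of its 47 windows of 5 Mb with at least 20 regions, 44 lay above the genome-wide 11.1%, with a median of 20% and a range of 7.14 to 38.2%. Over all 540 such windows the median was 10.7%. Chromosome 2 held 13 of the 20 windows with the highest shares, among them the 4 highest, at 150 to 155 Mb (13 of 34 regions, 38.2%), 140 to 145 Mb (12 of 32, 37.5%), 220 to 225 Mb (16 of 43, 37.2%) and 100 to 105 Mb (15 of 45, 33.3%). The fifth was at 90 to 95 Mb of chromosome 6 (12 of 37, 32.4%). On chromosome 16, 13 of 15 windows lay above the genome-wide share, with a highest value of 30.6%, whereas on chromosome 17 the number above it was 0 of 17 windows.

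**Figure D5:**
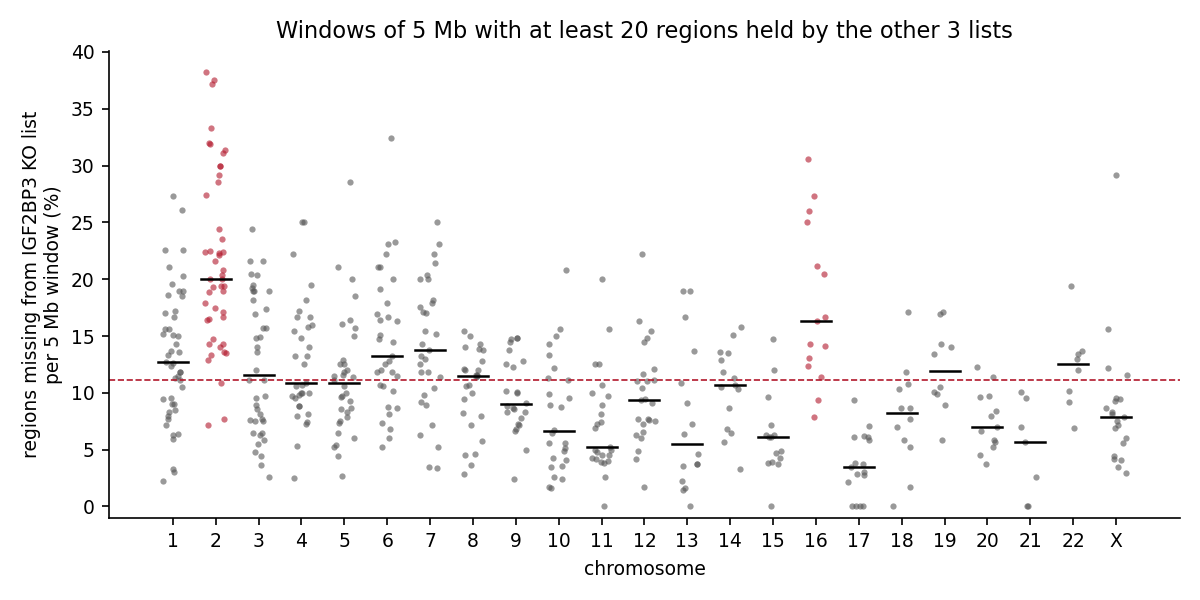
Percentage of regions missing from the IGF2BP3 knockout list among those held by the other 3 lists (y axis) in windows of 5 Mb with at least 20 such regions, each a point, by chromosome (x axis, points spread sideways for legibility). Black bars are medians, chromosomes 2 and 16 are in red and the dashed line is the 11.1% of all regions; the windows of chromosome 2 have a median of 20% and reach 38.2%.

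Most missing regions stood alone. With 11.1% of regions missing, most would stand alone under random placement too, so this does not show isolation. No comparison with random placement was made. When the regions held by the other 3 lists were read in order along each chromosome, 2740 of the 3690 (74.3%) had a neighbour on both sides that was present in the IGF2BP3 knockout, and 732 (19.8%) came in pairs. Runs of at least 4 missing regions numbered 14, of which 5 were on chromosome 2. The longest, of 6 regions, spanned 1.81 Mb (chr2:210577428-212384560) over parts of CPS1, a urea cycle enzyme, and ERBB4, a neuregulin receptor. It held 8 control peaks, 20 IGF2BP1 knockout peaks, 38 IGF2BP2 knockout peaks and 2 IGF2BP3 knockout peaks. A run of 5 regions in 1.57 Mb around TMEM182 (chr2:102841172-104408932) held 7, 13, 22 and 0 peaks in the same order of lists. Another run of 5, in 1.03 Mb without protein-coding genes (chr2:116510030-117537346), held 5, 5, 6 and 0 peaks. A run of 5 inside FMNL2, which encodes a formin that assembles actin (chr2:152369069-152636108), held 6, 7, 7 and 0. The remaining run of 5 lay in TMEM131L on chromosome 4 within 90 kb (chr4:153486367-153576390), and held 6, 7, 8 and 4 peaks. The runs thus differed in kind. At TMEM182 and FMNL2 the IGF2BP3 knockout list was empty throughout, whereas at TMEM131L it held peaks that the other 3 lists did not all share.

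Inside genes, 1673 protein-coding genes overlapped at least 1 missing region, of which 1401 overlapped exactly 1 and 22 at least 4. Genes overlapping any region held by the other 3 lists were not counted, so these numbers have no background. AUTS2, a long gene of neuronal development, had the most, 9 of the 22 regions in it that were held by the other 3 lists (40.9%). GSE1 had 6 of 21 (28.6%). A further 6 genes had 5 each. Among them were ERC2, an active-zone protein of synapses, with 5 of 13 (38.5%), ZFHX3, a zinc finger and homeobox transcription factor, with 5 of 10 (50%), and GMDS, an enzyme of GDP-fucose synthesis, with 5 of 26 (19.2%). FMNL2 and TMEM131L, which held the runs described above, each had 5 of 6 (83.3%). Long genes hold more regions of any kind, so the shares are the values to compare, against 11.1% genome-wide, and genes were ranked by the number missing, which favours high shares.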

How the data were processed

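Per the submitters' processing notes, fastp 0.24.1, BWA 0.7.17, MACS2 3.0.0, bedtools and the GRCh38 build were used. Roles, settings, the treatment of the transposase offset and how libraries were combined are not given in the sources used here. The authors deposited 1 list per group with the chromosome, start and end of each peak and no score, and the read depth behind the lists is unknown. Positions are printed counted from 1. Here, in Python 3.11.15 with pandas 2.3.3 and scipy 1.17.1, peaks sharing at least 1 bp were merged. The merging was checked against bedtools and on simulated lists. Genes and promoters came from RefSeq tables of GRCh38.p14. Promoter windows on chromosome 8 were not used here, and PEG10 had no window, so promoter shares and ranks cover only genes with a window. With 1 list per group no test was made; Wilson 95% intervals cover counting error over regions. All symbols of the gene lists matched the table. The regions, the lists and the rule for naming items (the 8 widest regions, the 10 widest at protein-coding promoters, listed genes, the targeted genes, the 5 longest runs, the 5 highest windows, the genes with the most regions, ties at 5 added later and 1 gene not reported here, and the edge of the rule) were chosen with earlier results of these data known. The 6 printed promoters were chosen after their values were seen.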

Additional observations from a re-analysis of the deposited data

How the results depend on the processing

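The number of regions missing only from the IGF2BP3 knockout ranged from 3007 to 3876 under 6 alternatives and was 1958 when every list was shortened to its 39194 widest peaks. Of these 1958, 393 overlapped an IGF2BP3 knockout peak of the full list. Keeping the widest peaks also gave a share missing of 7.54%, a gene-end share of 16.3%, shares of 16.6% on chromosome 2 and 11.1% on chromosome 16, and median widths of 676, 842 and 702 bp in the control, the IGF2BP1 knockout and the IGF2BP2 knockout; by construction these lists hold fewer narrow peaks. With peaks cut to their central 200 bp, the share missing was 12.4%, the gene-end share 17.1% and the widths 574, 706 and 570 bp. With peaks of at least 500 bp they were 12.2%, 18.4% and 662, 754 and 650 bp. Without chromosomes 2 and 16, an alternative chosen after seeing the data, 10.1% were missing. Setting the gene end at 500 bp or 2 kb gave 10.8% and 19.5%. Merging peaks within 500 bp and using chromosomes 1 to 22 and X alone moved none of these values beyond their intervals. With the widest peaks the listed genes numbered 8 in place of 9, since the neural and cell cycle lists had 0 in place of 1 each and the ribosomal list 4 in place of 3. No paired analysis was possible because each group has 1 list with no values per library, and for the same reason no library could be left out.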
